A study of Mus musculus with 18 samples.

Results

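The 33 genes described here mark B cells and the plasma cells that arise from them. They were taken by name from a list, and all 33 were found among 23356 features of an RNA-seq table of mouse lung. Bulk RNA of whole lung was sequenced in 18 libraries from male C57BL/6 mice that were wild type, β-arrestin 1 -/- or β-arrestin 2 -/-, and each genotype was kept for 4 weeks in normoxia (alveolar oxygen pressure, PAO2, about 150 mmHg) or in hypobaric hypoxia at the pressure of 18000 feet (PAO2 about 70 mmHg). There were 3 libraries in each of the 6 groups, numbered 0 to 2. The mice entered the exposure at 8 to 12 weeks and are labelled as 12 to 16 weeks old. Both mutant lines are labelled only as -/-, with no construct, driver, cell type or littermate status given. The labels do not say that the 3 libraries of a group come from separate animals, so a p-value here reflects library-to-library spread, which may be technical.

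B cells carry an antigen receptor made of a membrane immunoglobulin and the signalling chains CD79A and CD79B, and their identity is held by transcription factors such as PAX5, EBF1 and SPIB. Once activated, some become plasma cells, which lose most B cell surface proteins under the repressor BLIMP1 (Prdm1), raise IRF4 and secrete antibody, with the J chain (Igj, Jchain in RefSeq) joining immunoglobulin subunits into polymers. In the lung both are scarce in the absence of infection, and B cells can gather with T cells in lymphoid aggregates around airways and vessels. In bulk tissue, fewer cells of a type and less RNA per cell cannot be told apart.

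Library totals ran from 16806806 fragments (β-arrestin 1 -/- hypoxia replicate 2) to 25980876, and 16823 to 17410 genes had at least 1 fragment. Levels are given as CPM (counts scaled to a common library size), and as FPKM, which also divides by transcript length, where genes are compared with each other. Arrb1, the gene of β-arrestin 1, was at 83.7 to 118 CPM in the 6 β-arrestin 1 -/- libraries and at 302 to 478 CPM in wild type. Arrb2 was at 30.7 to 46.5 CPM in the 6 libraries labelled β-arrestin 2 -/- and at 30.2 to 43.3 CPM in wild type, so no lower level of the targeted gene was detected there (log2 difference 0.33 ± 0.198 (SE) in normoxia and -0.18 ± 0.198 in hypoxia, adjusted p = 0.256 and 0.821). Those 6 libraries are therefore called by their label throughout. Of the 33 genes, 31 had enough fragments to be tested among 15388 genes. Pax5, with 98 fragments in all 18 libraries, and Fcrl5, with 70, did not pass the filter on low counts. Genes of the immunoglobulin heavy and light chains were not analysed here, so Igj, Mzb1 and Prdm1 carry the plasma cell side.

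Promoter sequence was available from RefSeq (GRCm38.p6) for 28 of the 33 genes, in 32 windows of the 250 bases before a transcript start. Each window was searched on both strands for the letters of motifs bound by B cell factors: the octamer ATGCAAAT (OCT2, the product of Pou2f2, with its partner from Pou2af1), the EBF1 motif (TCCC, any 2 bases, GGGA), GAGGAAGT (PU.1 and its relative SPIB) and CAGGTG (E2A). The octamer stood in 3 of the 32 windows (Blnk, Cnr2 and Vpreb3), against 1.6% of all 32851 promoter windows. The EBF1 motif stood in 1 window (Cd22, against 0.779% of all), GAGGAAGT in 4 (Btla, Cd37, Cd72 and Fcrl1, against 2.44%) and CAGGTG in 12 (against 17.2%). A match is a stretch of letters and not a measured site. Sites that depart from these letters were not searched for, so a window without a match is not shown to lack one. The 4 windows below show each motif at least once in a gene that marks B cells, read on the gene's own strand 5′ to 3′ and ending at the base before the start, with matches in capitals, which do not overlap each other. They lie at chr7:24897247-24897496 (+ strand, CAGGTG in Cd79a), chr7:30879029-30879278 (- strand, CAGGTG read as CACCTG, then the EBF1 motif, in Cd22), chr7:45238840-45239089 (- strand, CAGGTG as CACCTG, then GAGGAAGT read as ACTTCCTC, in Cd37) and chr10:75948050-75948299 (+ strand, the octamer read as ATTTGCAT, in Vpreb3).
Cd79a: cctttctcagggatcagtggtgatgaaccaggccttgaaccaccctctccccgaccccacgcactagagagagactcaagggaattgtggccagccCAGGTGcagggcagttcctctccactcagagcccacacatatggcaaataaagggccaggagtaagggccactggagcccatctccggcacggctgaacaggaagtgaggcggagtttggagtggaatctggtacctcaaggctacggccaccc
Cd22: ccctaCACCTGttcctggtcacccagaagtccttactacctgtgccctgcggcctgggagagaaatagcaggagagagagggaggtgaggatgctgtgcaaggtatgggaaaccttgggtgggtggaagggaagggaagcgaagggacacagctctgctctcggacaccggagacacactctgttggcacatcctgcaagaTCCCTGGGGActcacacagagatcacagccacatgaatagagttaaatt
Cd37: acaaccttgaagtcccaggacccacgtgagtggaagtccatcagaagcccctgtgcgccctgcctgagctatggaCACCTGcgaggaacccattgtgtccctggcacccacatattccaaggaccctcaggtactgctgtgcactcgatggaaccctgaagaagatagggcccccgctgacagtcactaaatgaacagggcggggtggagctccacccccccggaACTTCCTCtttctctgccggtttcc
Vpreb3: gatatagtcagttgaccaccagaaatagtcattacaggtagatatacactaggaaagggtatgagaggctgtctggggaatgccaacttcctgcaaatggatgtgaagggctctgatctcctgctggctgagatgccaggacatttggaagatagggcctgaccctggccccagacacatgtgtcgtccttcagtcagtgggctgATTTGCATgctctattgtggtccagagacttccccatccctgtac

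Transcripts of most of these genes were scarce. By FPKM averaged over the 18 libraries the order began with Vpreb3 (29.7; VPREB3 binds immunoglobulin chains in B cell precursors), Cd38 (21.5; an NAD-consuming ectoenzyme that many other cells also carry), Igj (18.8), Ltb (18.3; the cytokine lymphotoxin β), Cd79b (16.9), Cd37 (11.6; a tetraspanin of mature B cells) and Cd79a (9.75). Ms4a1, the gene of CD20, averaged 2.84 FPKM, and the order ended with Tnfrsf17 at 0.364 (BCMA, a survival receptor of plasma cells), Cr2 at 0.29 (complement receptor 2), Pax5 at 0.21 and Fcrl5 at 0.0671. Every B cell gene of the defining set Cd79a, Cd79b and Ms4a1 had fragments in all 18 libraries.

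The spread between libraries was wide and shared. Cd79a differed 18-fold between its highest and lowest library, Fcer2a, the gene of the low-affinity IgE receptor CD23, 32.9-fold, Faim3, the gene of the IgM Fc receptor (Fcmr in RefSeq), 25.3-fold and Ms4a1 20.4-fold, while Cd38 differed 3.09-fold and Cnr2, the gene of the cannabinoid receptor CB2, 2.63-fold. Wild type hypoxia replicate 1 was the highest of all 18 libraries for 23 of the 31 tested genes, and wild type normoxia replicate 1 was the lowest for 22. The same genes also ranked libraries alike inside a group: wild type hypoxia replicate 1 was its group's highest for 29 genes, and replicate 0 its lowest for 26. Wild type normoxia replicate 2 was highest for 24, β-arrestin 1 -/- hypoxia replicate 0 lowest for 23, and labelled β-arrestin 2 -/- hypoxia replicate 0 highest for 23. The 3 β-arrestin 1 -/- normoxia libraries lay close together, with 1.6-fold between the highest and lowest for Cd79a, where wild type had 3.54-fold in normoxia and 4.65-fold in hypoxia.

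**Figure D1:**
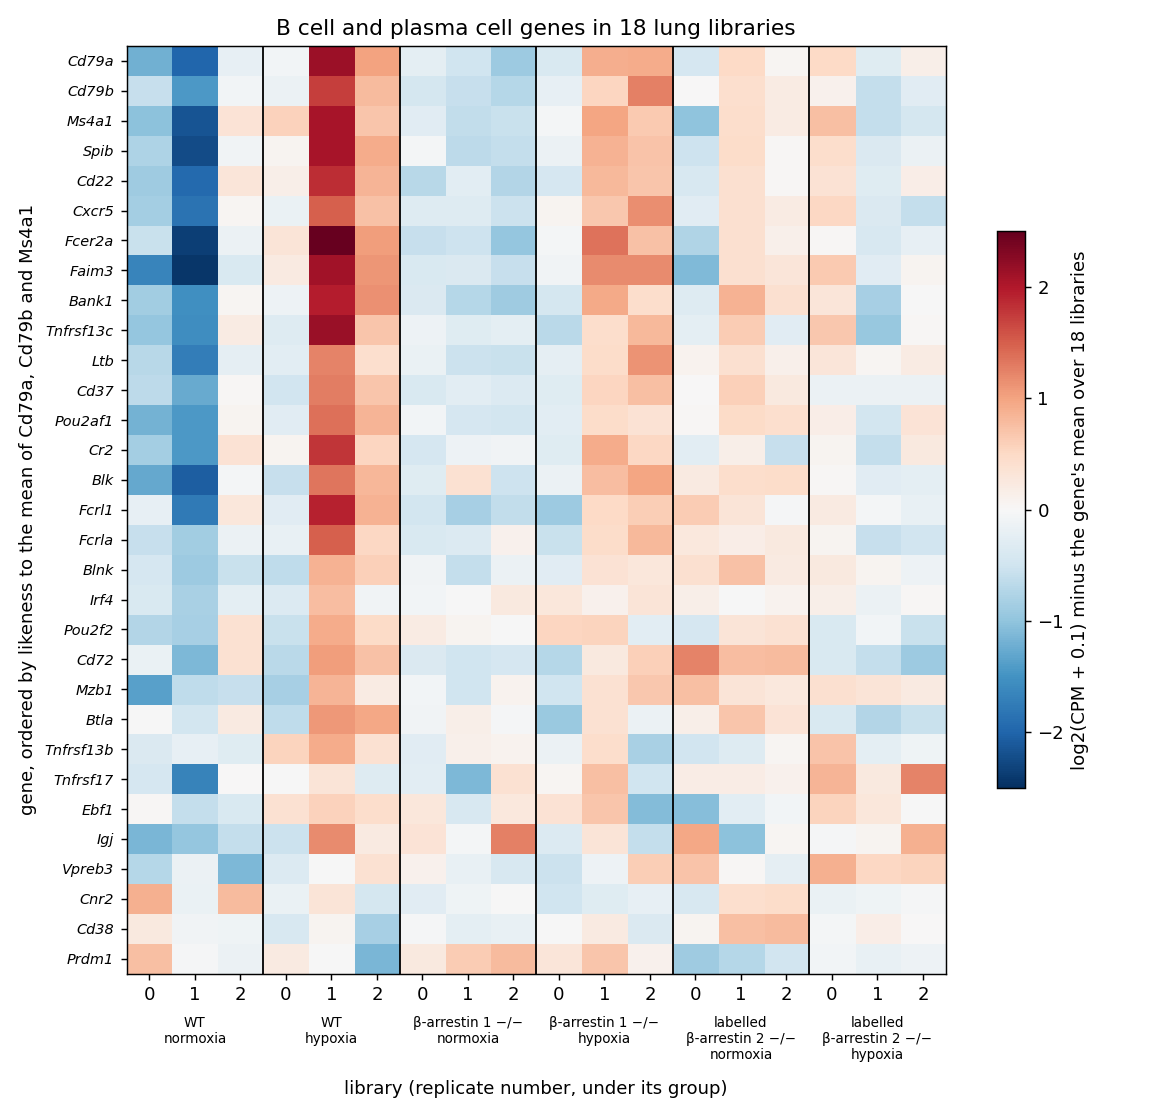
Level of 31 B cell and plasma cell genes (rows) in 18 lung libraries (columns, by group and replicate number), as log2(CPM + 0.1) minus the gene's mean, with red above and blue below it; genes are ordered by their correlation with the mean of Cd79a, Cd79b and Ms4a1. The upper rows change together from library to library, darkest red in wild type hypoxia replicate 1 and darkest blue in wild type normoxia replicate 1, and the lowest rows (Igj, Vpreb3, Cnr2, Cd38, Prdm1) do not follow them.

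A common level was formed as the mean of log2 CPM of Cd79a, Cd79b and Ms4a1, each centred on its own mean over libraries, and the other genes were compared with it over 18 libraries. These libraries share tissue makeup, depth and group, so the correlations are a description. Of the other 28 tested genes, 14 had Pearson's r over 0.8, a level that 0.547% of the 15357 other tested genes reached. The highest were Spib (0.985; a transcription factor of mature B cells), Cd22 (0.974; an inhibitory sialic acid receptor), Cxcr5 (0.969; the receptor for the follicle chemokine CXCL13), Fcer2a (0.968), Faim3 (0.966) and Bank1 (0.957; an adaptor of the antigen receptor). Without the 2 libraries farthest from the median, the replicates 1 of both wild type groups, r over 16 libraries was still 0.977 for Spib and 0.919 for Fcer2a. The survival receptor gene Tnfrsf13c (BAFF receptor) had r = 0.932, and its relative Tnfrsf13b (TACI) 0.464.

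At the other end, 8 genes had r under 0.5. Igj had r = 0.272 (-0.198 without the 2 farthest libraries), Ebf1 0.327, Vpreb3 0.231, Cnr2 0.00556, Cd38 -0.0395 and Prdm1 -0.239. The plasma cell gene Igj thus varied apart from the B cell genes: its CPM over that of Cd79a ran from 1.22 (β-arrestin 1 -/- hypoxia replicate 2 and labelled β-arrestin 2 -/- normoxia replicate 1) to 16.0 (β-arrestin 1 -/- normoxia replicate 2). The ratio of Cd79a to Cd79b, whose proteins pair, ran from 0.393 to 0.827. Among genes outside the list, the 10 most like the common level were Ly6d, a surface protein that appears as lymphoid precursors commit to B cells (r = 0.971), Cacna1i (0.959), Prkcb, the kinase PKCβ downstream of the antigen receptor (0.956), Ly9, a SLAM family receptor (0.95), Ptprcap, a partner of CD45 (0.948), Hvcn1, a proton channel (0.942), Il21r, the IL-21 receptor (0.939), Itga4, an integrin chain (0.936), Zfp831 (0.936) and Traf3ip3 (0.932).

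Chronic hypoxia in wild type lung went with higher B cell transcripts. Of the 31 tested genes 7 rose and 0 fell by edgeR's quasi-likelihood test (adjusted p below 0.05), where 2.85% of all 15388 genes rose and 1.92% fell. The median log2 change of the 31 genes was 1.35, against 0.0 over all genes, and 28 of the 31 were above 0. The 7 genes were both receptor chains Cd79a and Cd79b, the surface receptors Faim3 and Fcer2a, the adaptor Bank1, the transcription factor Spib and the octamer co-activator Pou2af1. The 3 hypoxic libraries all lay above the 3 normoxic ones for 8 genes and below them for 0, against 13.3% and 11.5% of all genes.

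Cd79a (chr7:24897497-24901858 in RefSeq on GRCm38.p6) stood at 4.36, 2.49 and 8.79 CPM in the normoxic wild type libraries (replicates 0 to 2) and at 9.6, 44.7 and 20.5 CPM in the hypoxic ones. The groups did not overlap, but the lowest hypoxic library was close to the highest normoxic one. Its log2 change was 2.25 ± 0.526 (SE), or 4.77-fold (adjusted p = 0.0243). Cd79b had 11.1, 6.07 and 15.7 CPM in normoxia and 14.9, 54.9 and 28.8 in hypoxia, so hypoxic replicate 0 fell inside the normoxic range (log2 change 1.58 ± 0.429, adjusted p = 0.0462). Ms4a1 had 2.34, 1.0 and 6.19 CPM in normoxia and 7.3, 20.5 and 7.91 in hypoxia. The groups did not overlap and the log2 change was 1.9 ± 0.578, which missed the threshold (adjusted p = 0.0737).

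Among the surface receptors, Faim3 had the largest log2 change of the 31 genes, 2.62 ± 0.566 (adjusted p = 0.0157). Its normoxic libraries had 1.79, 1.0 and 4.46 CPM and its hypoxic libraries 6.82, 25.4 and 12.7 CPM, without overlap. Fcer2a had 2.71, 0.717 and 3.67 CPM in normoxia and 5.08, 23.6 and 8.45 in hypoxia, again without overlap (log2 change 2.38 ± 0.567, adjusted p = 0.0263). The inhibitory receptor gene Cd22 had a log2 change of 1.69 ± 0.495 (adjusted p = 0.062), Cr2 one of 1.49 ± 0.499 (0.104) and Fcrla, which encodes an intracellular Fc receptor-like protein, one of 1.3 ± 0.388 (0.0663). Fcrl1, an Fc receptor-like co-receptor, had 1.33, 0.383 and 1.9 CPM in normoxia and 1.26, 6.18 and 2.91 in hypoxia, with overlap (1.51 ± 0.542, adjusted p = 0.129), and Cd37 had a change of 1.21 ± 0.375 (0.0793). Cd38 had the opposite sign with a log2 change of -0.37 ± 0.215 (0.376). The inhibitory co-receptor genes Cd72 and Btla differed by 0.73 and 0.72 with adjusted p of 0.36 and 0.297.

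Of the kinase and adaptors of the antigen receptor, Bank1 rose by 1.91 ± 0.529 on the log2 scale (adjusted p = 0.0499), and Blk, a Src family kinase of B cells, and Blnk, the adaptor that links SYK to PLCγ2, had changes of 1.67 and 1.04 that missed the threshold (0.0648 and 0.0643). Among the transcription factors, Pou2f2 had 0.825, 0.765 and 1.9 CPM in normoxia and 0.956, 2.84 and 2.06 in hypoxia (log2 change 0.74 ± 0.404, adjusted p = 0.338), and Irf4 had a change of 0.67 ± 0.242 (0.129). Spib had 2.84, 0.956 and 4.64 CPM in normoxia and 5.13, 20.8 and 9.44 in hypoxia, without overlap (log2 change 2.06 ± 0.52, adjusted p = 0.0339). Pou2af1 had 2.57, 2.15 and 6.32 CPM in normoxia and 4.87, 15.7 and 10.9 in hypoxia, with overlap (1.51 ± 0.412, adjusted p = 0.0475). Ebf1 was above normoxia in all 3 hypoxic libraries, at 6.91 to 7.96 against 3.44 to 5.37 CPM, with an adjusted p of 0.239. It followed the common level of the B cell genes little (r = 0.327, and 0.0597 without the 2 farthest libraries). Pax5, which was not tested, had 0, 1 and 5 fragments in normoxia and 5, 28 and 8 in hypoxia, from 0 CPM in normoxic replicate 0 to 1.19 CPM in hypoxic replicate 1.

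No gene of the survival, homing and cytokine set passed in wild type: Ltb had a log2 change of 1.36 ± 0.388 (adjusted p = 0.0562), Cxcr5 1.55 ± 0.474 (0.0738) and Tnfrsf13c 1.87 ± 0.632 (0.108), Tnfrsf13b was 2.07-fold higher (0.116), and Cnr2 lay lower at -0.64 ± 0.263 (0.187). On the plasma cell side Igj had 16.0, 18.2 and 23.5 CPM in normoxia and 24.5, 81.1 and 41.8 in hypoxia. These did not overlap, and the log2 change of 1.35 ± 0.496 had an adjusted p of 0.137. Mzb1, a chaperone for immunoglobulin in the endoplasmic reticulum, had a log2 change of 1.08 ± 0.378 (0.118). Prdm1, which other lung cells express too, had 32, 18.6 and 17 CPM in normoxia against 22.1, 18.7 and 8.52 in hypoxia (log2 change -0.46 ± 0.292, adjusted p = 0.429).

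**Figure D2:**
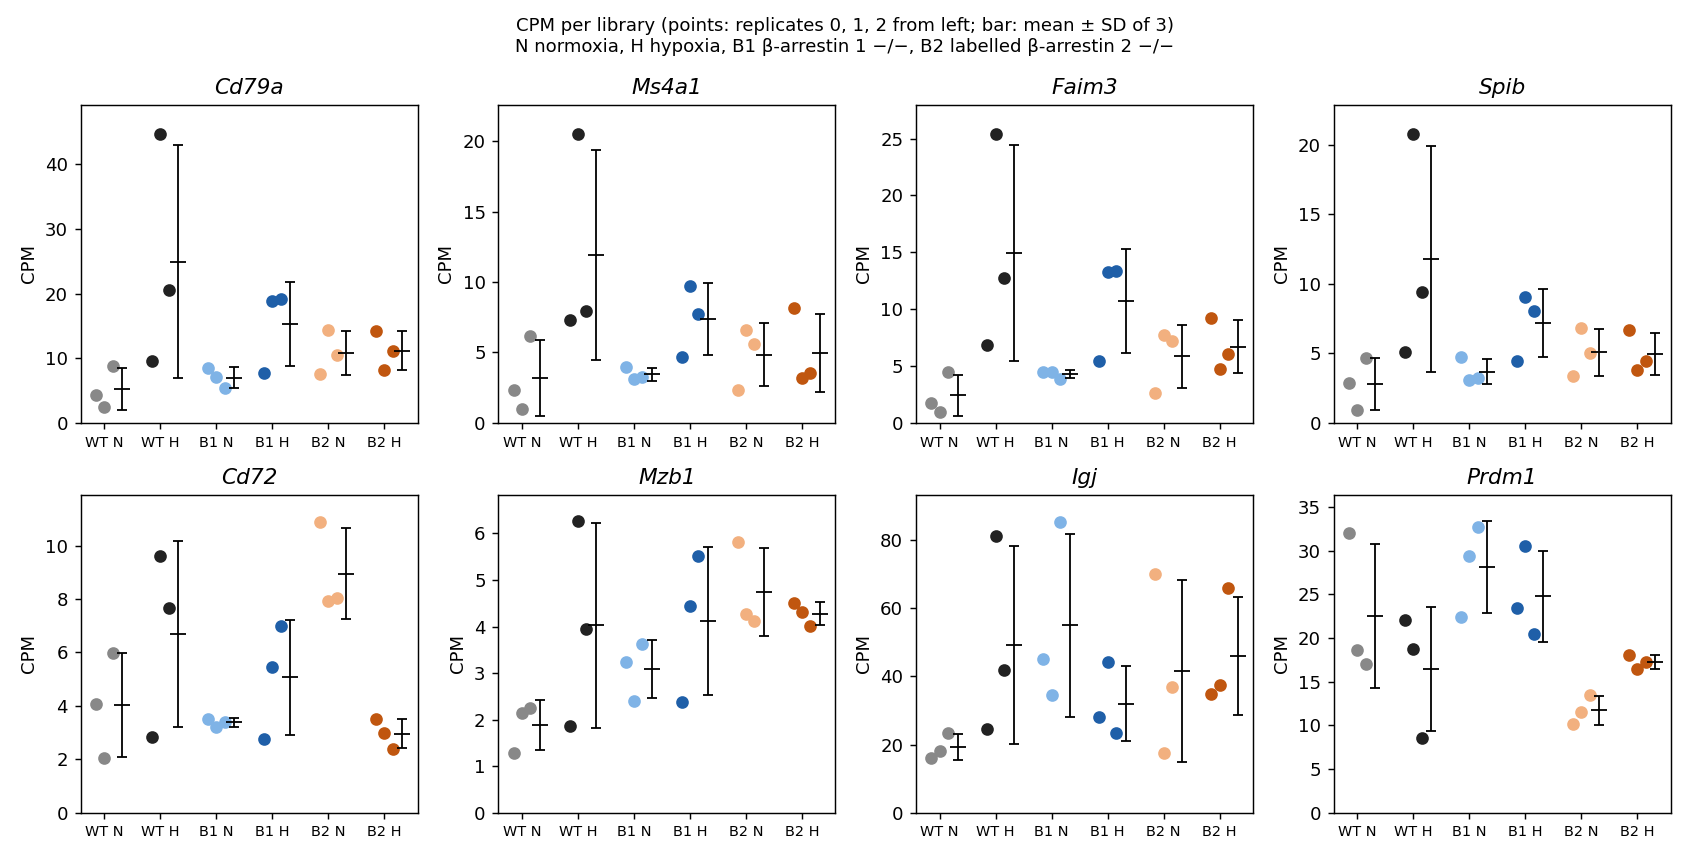
CPM per library (linear axis from 0) of Cd79a, Ms4a1, Faim3, Spib, Cd72, Mzb1, Igj and Prdm1 in the 6 groups, each point 1 library in the order of replicates 0 to 2 and each bar the mean with SD over 3 libraries. In wild type hypoxia Cd79a runs from 9.6 to 44.7 CPM with replicate 1 on top, whereas Cd72 is highest in the labelled β-arrestin 2 -/- normoxia group, at 7.93 to 10.9 CPM.

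The wild type calls rested on a few libraries. Without hypoxic replicate 1, without normoxic replicate 0 or without normoxic replicate 1, 0 of the 31 genes passed, while 3 passed without hypoxic replicate 2, 14 without normoxic replicate 2 and 20 without hypoxic replicate 0. Cd79a then had log2 changes from 1.52 to 2.86, all above 0. DESeq2 called 17 genes, all higher, and the authors' deposited table of Cuffdiff tests has 23 higher and 1 lower, among them all 7. A fit of only these 6 libraries called 0 genes (Cd79a 2.25 ± 0.599, adjusted p = 0.0932). The share of all genes called is not given for these refits, DESeq2 or the Cuffdiff tests, so their counts cannot be set against it. At an unadjusted p under 0.05 there were 24 of 31 in the fit of all libraries, 23 of them higher, against 19.4% of all genes in either direction.

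Other leukocyte genes moved with the B cell genes in wild type hypoxia. Of 28 T and NK cell markers 10 rose and 0 fell, with a median log2 change of 1.0. Their summed level was 84.8 to 140 CPM in normoxia and 174 to 243 in hypoxia, and the T cell genes Themis (2.43 ± 0.492, adjusted p = 0.0111), Cd8b1 (2.23 ± 0.399, 0.00532), Cd5 (1.94 ± 0.409, 0.0141) and Cd28 (1.48 ± 0.343, 0.0229) were the called genes of largest change. Of 14 genes carried by most leukocytes 6 rose, and their sum was 398 to 706 CPM in normoxia and 704 to 1040 in hypoxia, so the ranges touch. Of 16 macrophage and monocyte markers 2 rose, with sums of 3830 to 5720 and 4450 to 4970 CPM that overlapped. Tissue makeup also differed: 15 cardiac muscle markers, which lung samples can hold from pulmonary veins, summed to 76.3 to 449 CPM in normoxia and 1110 to 2010 CPM in hypoxia, and 11 adipocyte markers to 29.2 to 68.4 and 108 to 123 CPM. Of 12 pericyte and mesenchymal markers 4 rose and 0 fell, with sums of 1410 to 1970 CPM in normoxia and 1980 to 2190 in hypoxia. Markers of airway secretory cells moved most: 6 of 11 rose and 0 fell, with a median log2 change of 5.4, although their sum, 6430 to 9820 CPM in normoxia and 7870 to 10300 in hypoxia, overlapped. Reg3g, an antibacterial lectin, was at 0.0956 to 0.55 CPM in normoxia and 46.8 to 167 in hypoxia, and Bpifb1, a secreted airway protein, at 0.871 to 3.2 and 87.6 to 167 CPM. Gp2 and Clca3, also among the called genes of largest change, were at 0 to 0.0956 CPM in normoxia, and at 6.39 to 16.9 and 1.09 to 33.0 CPM in hypoxia. Without normoxic replicate 0 or 1 the calls of Themis (2.26 and 2.28), Cd5 (1.77 and 1.69), Cd28 (1.52 and 1.24), Reg3g (9.25 and 8.02), Clca3 (7.43 and 8.37) and Bpifb1 (5.63 and 6.49) were lost, with log2 changes in the same direction, while Cd8b1 and Gp2 stayed called without any single library. Hypoxic replicate 1 also decided the call of Cd5 (1.62 without it), and of Cd28 (1.48) and Clca3 (8.0), which hypoxic replicate 2 decided too (1.28 and 7.01), as it did that of Bpifb1 (5.74); without normoxic replicate 2 Reg3g (8.25), Clca3 (8.32) and Bpifb1 (5.96) missed the threshold as well. With the mean level of the cardiac, adipocyte and airway secretory markers as a covariate, 0 of the 31 genes passed and Cd79a had a log2 change of 1.76 ± 0.711 (adjusted p = 0.42), in a fit where that score also separates the wild type groups (-2.78 to -1.39 in normoxia, 0.657 to 1.23 in hypoxia). The part of these other cells in the B cell result was otherwise not tested. Of 9 genes for lymph node stroma and high endothelial venules 4 were tested, 0 rose and 0 fell, with a median log2 change of -0.23 and sums of 499 to 659 CPM in normoxia and 476 to 492 in hypoxia. Most of these sums was Clu (279 to 375 CPM in normoxia, 271 to 287 in hypoxia), so they say little about the other genes of the list. Chst4, a sulfotransferase of high endothelial venules, averaged 19.0 ± 9.78 CPM (SD, n = 3) in normoxia and 8.72 ± 1.19 in hypoxia. Glycam1 had 2 fragments and Madcam1 7 in all 18 libraries, and the homing chemokine genes Ccl19, Ccl21a, Ccl21b and Ccl21c were listed at 0 in every library. Whether reads of these 4 chemokine genes were lost in the authors' processing was not tested, so the values of 0 cannot be read as absence of the transcripts.

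**Figure D3:**
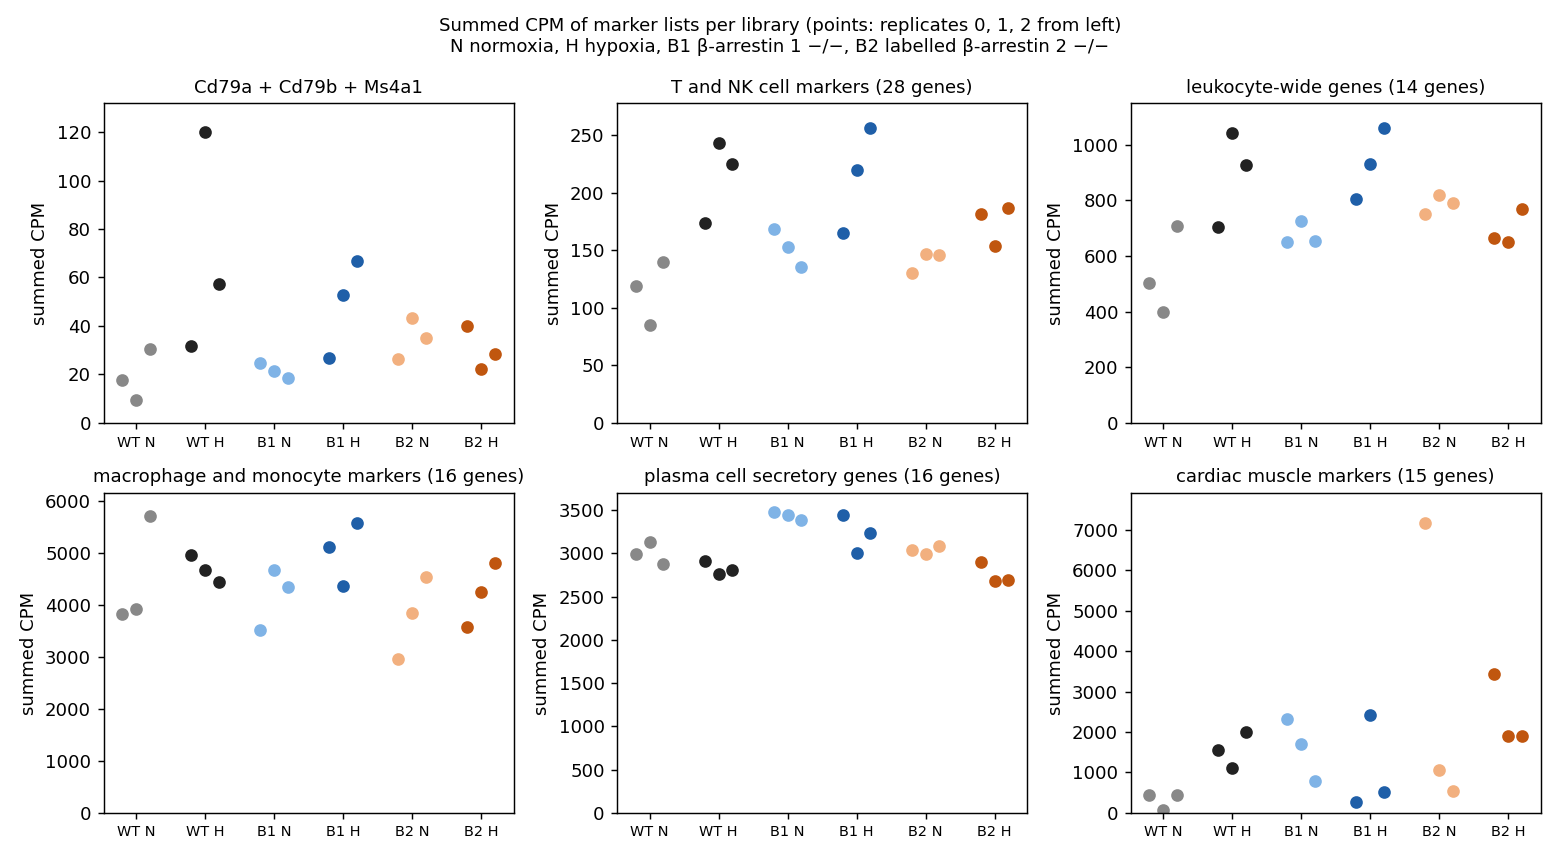
Summed CPM per library (linear axes from 0) of Cd79a, Cd79b and Ms4a1, of T and NK cell, leukocyte-wide and macrophage markers, of plasma cell secretory genes and of cardiac muscle markers in the 6 groups, with 1 point per library. The B cell sum is 9.56 to 30.7 CPM in wild type normoxia and 31.8 to 120 in wild type hypoxia, the T and NK sum is also higher in hypoxia, and the secretory genes are not (2880 to 3130 against 2760 to 2910 CPM).

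The wider B cell pathway was read from further lists. Of 20 other B cell genes 18 were tested, and 6 rose and 0 fell in wild type hypoxia. Ikzf3, the lymphoid factor Aiolos, rose by 1.57 ± 0.345 on the log2 scale (adjusted p = 0.0175), Ciita, the activator of MHC class II genes, by 1.38 ± 0.38 (0.0489), and Dtx1, a Notch pathway ubiquitin ligase with a role in marginal zone B cells, by 1.27 ± 0.19 (0.00161). Dtx1 was at 3.16 to 3.98 CPM in normoxia and 7.73 to 10.2 in hypoxia, far apart beside the spread of Cd79a, and stayed called without any single library. Ikzf3 lost its call without normoxic replicate 0 or 1 or hypoxic replicate 1 or 2 (1.22 to 1.56), and Ciita without any of these or normoxic replicate 2 (0.95 to 1.52).

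Of 20 genes that carry the antigen receptor signal, 3 rose, among them the phospholipase gene Plcg2 by 0.79 ± 0.178 on the log2 scale and the kinase gene Syk by 0.77 ± 0.182, and 1 fell (Inpp5d, the lipid phosphatase SHIP1 that opposes the signal, by 0.56 ± 0.124), with adjusted p from 0.0182 to 0.0249 for the named genes. Each of these 3 named calls was lost without normoxic replicate 0 or 1 or hypoxic replicate 1 or 2 (Plcg2 0.6 to 0.8, Syk 0.56 to 0.77, Inpp5d -0.59 to -0.46). Of 17 tested genes for ligands and niche factors 4 rose. Cxcl12, a chemokine that retains B cell precursors and plasma cells, was at 288, 233 and 260 CPM in normoxia and 831, 578 and 907 CPM in hypoxia (log2 change 1.57 ± 0.303, adjusted p = 0.00799, and 0.0559 without normoxic replicate 1). The call of Ccl20, a ligand of CCR6 (3.96 ± 1.05, adjusted p = 0.043), came with 9.86 CPM in hypoxic replicate 2 and 0.521 and 0.55 CPM in the other hypoxic libraries, and was lost without hypoxic replicate 2 (1.19) or any normoxic library (3.56 to 4.29). The BAFF gene Tnfsf13b was at 31.3 to 43.4 CPM in normoxia and 26.8 to 37.8 in hypoxia, and Cxcl13 at 2.11 to 4.02 and 3.95 to 4.83 CPM, and neither passed. Of 16 secretory genes that plasma cells use heavily, which other secretory lung cells also express, 0 rose and 0 fell, with a median log2 change of -0.04.

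In β-arrestin 1 -/- lung, 0 of the 31 genes passed between hypoxia and normoxia, by edgeR or by DESeq2, where edgeR called 2.95% of all genes. At an unadjusted p under 0.05 there were 6 of 31, all higher: Cd79b, Fcer2a, Ltb, Faim3, Cxcr5 and Cd79a. Over all genes 17.9% had such a p in either direction, so the count of 6 is near that share. The median log2 change was 0.57 (0.02 over all genes), and 5 genes had all 3 hypoxic libraries above the normoxic ones (11.4% of all genes did), none below (9.85%). The authors' deposited table has 11 higher and 1 lower. Cd79b had the smallest p: it stood at 12.2, 11.1 and 10.1 CPM in normoxia and at 14.4, 24.0 and 39.9 CPM in hypoxia (log2 change 1.22 ± 0.427, adjusted p = 0.146). The hypoxic libraries lay above the normoxic ones, with replicate 0 nearest. Cd79a had 8.54, 7.14 and 5.33 CPM in normoxia and 7.74, 18.9 and 19.2 in hypoxia, where replicate 0 lay inside the normoxic range (1.12 ± 0.513, adjusted p = 0.265).

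Igj had the lowest log2 change of the 31 genes in this genotype, with 45.2, 34.4 and 85.3 CPM in normoxia and 28.1, 44.3 and 23.5 CPM in hypoxia (-0.78 ± 0.488, adjusted p = 0.412, groups overlapping). The cardiac markers summed to 791 to 2310 CPM in normoxia and 279 to 2420 in hypoxia, and the T and NK markers to 136 to 169 and 165 to 256 CPM. Among the other B cell genes 2 of 18 rose: Cd40, which receives help from T cells and is also made by macrophages and endothelium, by 1.17 ± 0.149 on the log2 scale (19.3 to 22.2 against 34.8 to 59.9 CPM, adjusted p = 0.000711), and Dtx1 by 0.75 ± 0.188 (0.0418). Cd40 was not particular to this genotype: hypoxic libraries were also above normoxic ones in wild type (30.1 to 35.1 against 13.7 to 15.6 CPM) and in the labelled libraries (24.5 to 28.1 against 16.8 to 18.6 CPM). The call of Dtx1 was lost without any single library of these groups except hypoxic replicate 0 (0.57 to 0.83). The difference between the hypoxia responses of β-arrestin 1 -/- and wild type was tested as an interaction. It gave 0 of 31 genes by edgeR and by DESeq2, and 1 (Igj, -2.13 ± 0.696, adjusted p = 0.807) at an unadjusted p under 0.05. Over all 15388 genes the edgeR test called 0%, and 5.84% had an unadjusted p under 0.05. The median of the 31 interaction values was -0.68, and that of Cd79a was -1.13 ± 0.722.

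In the libraries labelled β-arrestin 2 -/- 1 of 31 genes fell under hypoxia and 0 rose, where 10.8% of all genes fell and 11.1% rose, and the median log2 change was -0.14 (-0.04 over all genes). The gene was Cd72 (chr4:43447724-43455102), a C-type lectin that binds CD100 and dampens the antigen receptor. It stood at 10.9, 7.93 and 8.03 CPM in normoxia and at 3.51, 2.98 and 2.4 CPM in hypoxia, far apart. Its log2 change was -1.59 ± 0.42 (adjusted p = 0.0151). The call was lost without normoxic replicate 0 (-1.42, adjusted p = 0.0567) or hypoxic replicate 2 (-1.46, 0.0595), and the authors' deposited table does not call it. In GENCODE M21, 1423 of the 3422 exon bases of Cd72 (41.6%) also belong to Tesk1 on the opposite strand, and the libraries do not mark strand. Tesk1 was at 56.2 to 81.3 CPM over all libraries with a log2 change of 0.12 ± 0.108 here. Markers of other immune cells moved in the same comparison: 4 of 11 dendritic cell markers fell and 1 rose, and 3 of 16 macrophage and monocyte markers fell and 1 rose, and 2 of 11 airway secretory markers and 2 of 4 lymph node markers fell, among them Chst4 (-1.7 ± 0.359, adjusted p = 0.00461). Batf3, a factor of cross-presenting dendritic cells, changed by -1.81 ± 0.466 on the log2 scale (adjusted p = 0.0134), Xcr1 by -1.02 ± 0.236 (0.00775) and Flt3 by -1.0 ± 0.226 (0.00682), and the complement genes C1qc, C1qb and C1qa by -0.93, -0.77 and -0.7. The genes that rose were Zbtb46 of the dendritic list (0.97 ± 0.275, adjusted p = 0.0206) and Chi3l3 of the macrophage list (1.88 ± 0.376, 0.00342). The calls of Zbtb46 and Chi3l3 were not followed through the alternatives. The sum of the dendritic list was 304 to 332 CPM in normoxia and 340 to 365 in hypoxia, and that of the macrophage list 2960 to 4530 and 3570 to 4800 CPM. Without single libraries the calls of Batf3 (normoxic replicate 0, hypoxic replicates 0 and 2; -1.7 to -1.4), C1qa (all but hypoxic replicate 1; -0.78 to -0.54) and C1qb (normoxic and hypoxic replicates 0 and 2; -0.77 to -0.67) were lost. The part of these cells in the value of Cd72 was not tested.

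None of the 7 genes that rose in wild type passed between these groups. Cd79a had 7.55, 14.3 and 10.5 CPM in normoxia and 14.2, 8.2 and 11.2 CPM in hypoxia, Cd79b 16.6, 22.2 and 19.1 against 17.8, 10.9 and 13.6, and Faim3 2.67, 7.71 and 7.22 against 9.27, 4.78 and 6.1, each with overlapping groups. Btla, which binds HVEM and restrains lymphocytes, was lower in all 3 hypoxic libraries (4.27 to 5.46 against 7.97 to 11.7 CPM) and missed the threshold (-0.98 ± 0.369, adjusted p = 0.0672). In all, hypoxic libraries lay wholly above normoxic ones for 3 genes and below for 5, where 22.6% and 25.3% of all genes did. DESeq2 called 2 genes lower, and the authors' deposited table has 2 higher and 2 lower.

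**Figure D4:**
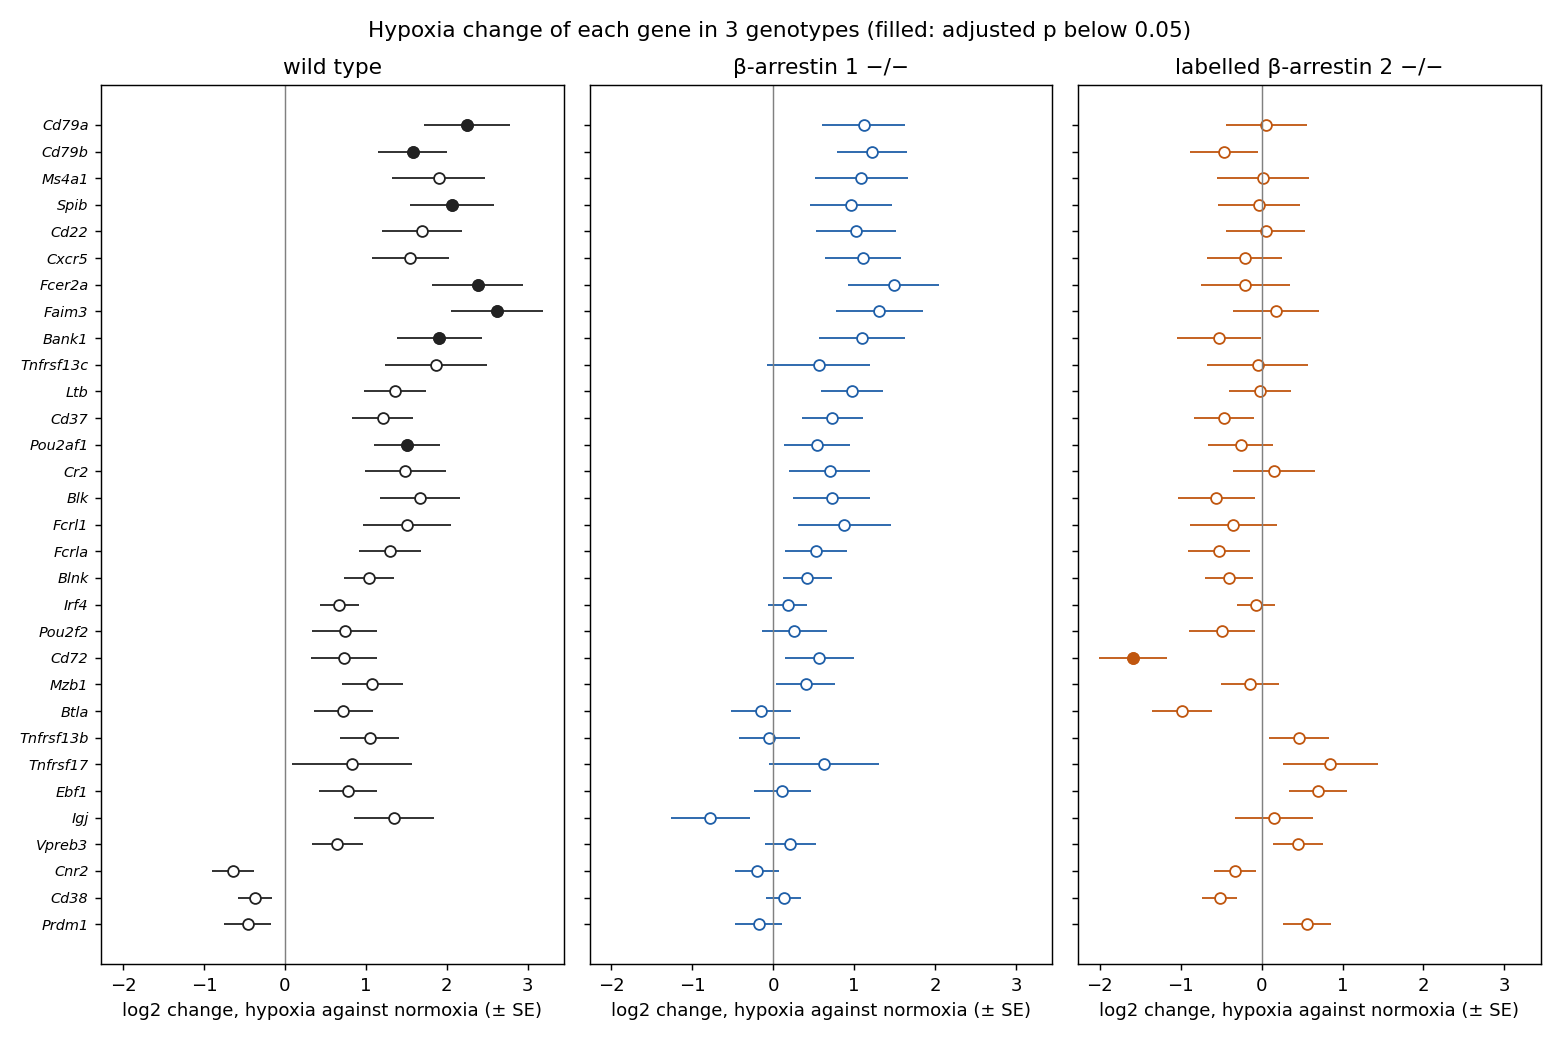
Log2 change between hypoxia and normoxia with SE for 31 genes in the 3 genotypes (the panel titles name them), with filled points for adjusted p below 0.05 and genes in the order of the plot by library. In wild type 7 points are filled, from 1.51 to 2.62, in β-arrestin 1 -/- 0 are, and in the labelled β-arrestin 2 -/- libraries Cd72 at -1.59 is.

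The difference of the hypoxia response between the libraries labelled β-arrestin 2 -/- and wild type was also tested as an interaction. Its values were below 0 for 28 of the 31 genes with a median of -1.67 (-0.06 over all genes), and 1 gene passed: Cd72, at -2.32 ± 0.589 (adjusted p = 0.0331), where 2.56% of all genes were called lower and 3.49% higher. Both responses entered it, since Cd72 went from 4.08, 2.06 and 5.97 CPM in wild type normoxia to 2.82, 9.61 and 7.65 CPM in wild type hypoxia. The next genes missed the threshold narrowly, with Cd79b at -2.04 ± 0.6 (0.0554), Blnk at -1.44 ± 0.428 (0.0569), Fcrla at -1.84 ± 0.546 (0.0575) and Bank1 at -2.44 ± 0.737 (0.06). At an unadjusted p under 0.05 there were 23 of 31 genes, 22 of them lower, against 26.4% of all genes in either direction. Prdm1 was the higher one at 1.01 ± 0.415 (adjusted p = 0.139). DESeq2 called 13, all lower. The edgeR count moved with single libraries: 9 genes passed without wild type normoxia replicate 2, 17 without wild type hypoxia replicate 0 and 1 without labelled β-arrestin 2 -/- normoxia replicate 2, and 0 passed when any other single library of these 4 groups was left out (Cd72 from -2.45 to -1.95). In this comparison 5 of 11 airway secretory markers were lower and 0 higher, with a median of -4.97, 2 of 11 dendritic cell markers were lower and 1 higher, and 1 of 16 macrophage and monocyte markers was lower. The part of dendritic cells, macrophages and monocytes was not tested. With the covariate that holds the airway genes Cd72 had -1.85 ± 0.632 (adjusted p = 0.191). That score also separates the wild type groups, so this fit cannot tell the part of the airway cells from that of hypoxia.

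Compared in normoxia, the libraries labelled β-arrestin 2 -/- had 2 of the 31 genes higher than wild type and 0 lower, where 4% of all genes were higher and 5.49% lower. Blnk was at 7.66, 9.72 and 6.78 CPM against 4.31, 3.06 and 3.89 CPM (log2 difference 1.1 ± 0.307, adjusted p = 0.0376). Mzb1 was at 5.82, 4.27 and 4.12 CPM against 1.28, 2.15 and 2.25 CPM (1.31 ± 0.378, adjusted p = 0.042). Neither overlapped. Of the exon bases of Mzb1, 57.2% also belong to SPATA24 on the same strand in GENCODE M21, and Spata24 was higher as well, at 15, 13.4 and 8.59 CPM against 6.15, 6.89 and 6.63 (0.91 ± 0.248, adjusted p = 0.034), so fragments of the shared exons could be given to either gene. Blnk and Mzb1 lost the call when any single library of the 2 groups other than labelled β-arrestin 2 -/- normoxia replicate 2 was left out (Blnk 0.94 to 1.2, Mzb1 1.09 to 1.45), and so did Spata24 (0.74 to 0.93). Without wild type normoxia replicate 2, 2 other genes of the list passed. The calls were lost with the tissue covariate as well (Blnk 0.81 and Mzb1 1.02).

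Over the whole list that comparison had a median log2 difference of 0.81 (0.04 over all genes), with 28 of 31 above 0. The labelled libraries lay wholly above wild type for 9 genes and below for 1, against 22% and 22.1% of all genes. The gene below was Prdm1, at 10.2, 11.5 and 13.5 CPM against 32, 18.6 and 17 CPM (-0.94 ± 0.296, adjusted p = 0.0551), and Cd72 was above without a call (1.14 ± 0.413, 0.081). DESeq2 called 4 higher and 1 lower, and the authors' deposited table has 14 higher and 1 lower. The normoxic wild type libraries, which hold the lowest library for most of these genes, enter this comparison and the wild type hypoxia comparison alike. Cardiac markers summed to 545 to 7170 CPM in the labelled normoxic libraries, and 76.3 to 449 in wild type. Of 11 airway secretory markers 7 were higher and 0 lower, with a median log2 difference of 4.57: Bpifa1 was at 89.7 to 1900 CPM against 1.34 to 2.71 CPM, Bpifb1 at 52.5 to 443 against 0.871 to 3.2, Reg3g at 5.81 to 131 against 0.0956 to 0.55 and Clca3 at 0.282 to 23.9 against 0 to 0.0956. Without any single wild type normoxia library or labelled normoxia replicate 0 the calls of Bpifa1 (7.11 to 9.09 on the log2 scale), Reg3g (5.51 to 8.29) and Clca3 (3.78 to 7.37) were lost, that of Clca3 also without labelled normoxia replicate 1 (7.49), and that of Bpifb1 was not. The part of these cells was not tested beyond the covariate, whose score also separates these 2 groups (-0.601 to 2.38 in the labelled libraries, -2.78 to -1.39 in wild type).

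In hypoxia, 0 of the 31 genes differed between the libraries labelled β-arrestin 2 -/- and wild type by edgeR (0.923% of all genes did), and 2 were lower by DESeq2. At an unadjusted p under 0.05 there were 14, all lower, against 11.7% of all genes in either direction. The median log2 difference was -0.91 (-0.01 over all genes), with 26 of 31 below 0, and 1 gene lay wholly above and 1 wholly below wild type (8.39% and 9.07% of all genes). Vpreb3 was the gene above (18.1 to 23.4 against 9.95 to 16.3 CPM) and Fcer2a the gene below, at 4.16, 3.06 and 3.48 CPM against 5.08, 23.6 and 8.45 CPM (-1.79 ± 0.547, adjusted p = 0.149). The authors' deposited table has 1 higher and 17 lower. Among the other B cell genes H2-Ob, a chain of the B cell protein H2-O, was lower at 3.94, 2.78 and 3.01 CPM against 11.1, 31.7 and 26.6 CPM (-2.83 ± 0.352, adjusted p = 0.000425), without overlap.

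Between β-arrestin 1 -/- and wild type, 0 of the 31 genes passed in normoxia (0.221% of all genes did) and 0 in hypoxia (0.201%), by edgeR as by DESeq2. In normoxia 3 of 31 had an unadjusted p under 0.05, 2 higher and 1 lower, which is near the share of all genes (8.71%). Igj was at 45.2, 34.4 and 85.3 CPM against 16.0, 18.2 and 23.5 CPM in wild type, without overlap (log2 difference 1.52 ± 0.498, adjusted p = 0.315). Irf4, a factor of activated B cells and plasma cells, was at 4.56 to 5.74 against 2.68 to 4.02 CPM (0.53 ± 0.243, 0.55). Mzb1 also lay wholly above (0.7 ± 0.382, 0.657), and these were the 3 of 31 genes wholly above wild type, with 0 below, where 10.8% and 11.8% of all genes were, so the share above is near that of all genes. Cnr2 was the lower one (-0.72 ± 0.264, 0.4). In hypoxia the 2 genes at an unadjusted p under 0.05 were Btla (-0.8 ± 0.365, adjusted p = 0.432) and Tnfrsf13b (-0.78 ± 0.358, 0.434), both lower, where 11.3% of all genes had such a p. Wholly above or below wild type lay 0 genes (4.82% and 4.97% of all genes). The authors' deposited table has 1 higher and 1 lower in normoxia, and 1 higher and 10 lower in hypoxia.

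The other B cell lists in the libraries labelled β-arrestin 2 -/- moved both ways under hypoxia. Of 18 tested B cell genes 4 rose and 4 fell, where 11.1% of all genes rose and 10.8% fell. H2-Ob (-1.64 ± 0.348, adjusted p = 0.00483) and Ly86, which pairs with the B cell receptor CD180 (-0.86 ± 0.256, 0.0268), were on 1 side. Ciita (1.38 ± 0.383, 0.0188) and Dtx1 (0.88 ± 0.189, 0.00496) were on the other. Of the 17 tested niche genes 1 rose and 4 fell. Tnfsf13b, the gene of BAFF, was at 40.5, 44.0 and 44.4 CPM in normoxia and at 24.2, 30.2 and 23.2 CPM in hypoxia (-0.73 ± 0.17, adjusted p = 0.00773), clearly apart. Relb, a subunit of the NF-κB form that lymphotoxin and BAFF activate, was at 36.0 to 39.4 and 18.7 to 23.3 CPM (-0.8 ± 0.189, 0.00887). The call of Ly86 was lost without any single library of these groups (-0.91 to -0.81), and that of Ciita without normoxic replicate 0 (1.18) or hypoxic replicate 0 (1.03). With the values above, Dtx1 rose in hypoxia in all 3 genotypes.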

How the data were processed

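Poly(A) RNA of frozen whole lung was sequenced in 18 libraries, and the kit named in the labels' protocols keeps no strand information. FastQC, TopHat and Cuffdiff with the mm10 build stand in the submitters' processing notes; their versions, like the gene models, were not given in the sources used here. Estimated counts are as the authors deposited them, raw fragments for each gene in each library (93.3% of values whole, and 97% for the 33 genes), with FPKM beside them. A table of Cuffdiff comparisons was also deposited, from which q-values and the direction of the test score were taken. Of 23356 features, 5 marked HIDATA were not used, and 20 marked FAIL were.

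For the tests, counts were rounded, scaled by TMM and filtered with filterByExpr on the 6 groups, which kept 15388 genes. A single model of group means over all 18 libraries, with no replicate block, was fitted in edgeR 4.0.16 (R 4.3.3), and quasi-likelihood F-tests were adjusted by Benjamini-Hochberg over all genes, with a threshold of 0.05. Where no test is named, an adjusted p comes from it. Shares of all genes called come from it too, and counts from other tests or refits have no such share beside them. Errors of log2 changes are SE, and CPM values use the TMM sizes. Scripts were tested on simulated data. None of the 153 pairs of libraries agreed within sampling noise (lowest chi-square per gene 9.08).

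All 33 genes are described. The rule for the other lists was up to 4 called genes of largest change in each comparison; they are named from the lists that bear on a result, the other lists are given by counts or left out, and the 10 genes most like the mean of Cd79a, Cd79b and Ms4a1 are named. Values of Tesk1, Spata24, uncalled Tnfsf13b and Cxcl13 were chosen after they were seen. A few genes of these lists are counted but not reported here by name. The genes, lists and rules were chosen with earlier results of these data known. The alternatives were the Wald test of DESeq2 1.42.0; its size factors in edgeR; keeping all genes with any count; limma 3.58.1 on log2(FPKM + 1) and on log2(FPKM + 0.1) for genes with FPKM of at least 1 in 3 libraries, and on the former for all genes; a fit of the compared groups alone; a replicate block; the tissue score as covariate; and leaving out each library. Leaving out the 2 libraries of lowest total was chosen after seeing the data.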

Additional observations from a re-analysis of the deposited data

Results flagged for a closer look

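The response to hypoxia in the libraries labelled β-arrestin 2 -/- differed from that in wild type for 1 listed gene and 5 other B cell genes by the interaction test of edgeR. Of the 31 listed genes 1 was lower and 0 higher, and of 18 other tested B cell genes 5 were lower and 0 higher. Over all genes 2.56% were lower and 3.49% higher, so the share of the listed genes that was lower (3.23%) is near that of all genes. The 4 flagged genes are described here. Cd72 differed by -2.32 ± 0.589 on the log2 scale (adjusted p = 0.0331), going down in the labelled libraries from 7.93 to 10.9 CPM to 2.4 to 3.51 CPM. The call of Cd72 was lost under 11 of 22 alternatives, with values from -2.7 to -1.77. H2-Ob, a chain of the B cell protein H2-O, differed by -2.85 ± 0.476 (adjusted p = 0.00615). It went from 7.36 to 13.3 CPM in normoxia to 11.1 to 31.7 CPM in hypoxia in wild type, and from 8.5 to 11.6 to 2.78 to 3.94 CPM in the labelled libraries. Siglecg, a sialic acid receptor that restrains B cells, differed by -2.45 ± 0.634 (0.036) and lost the call when any single library of these 4 groups was left out (-2.62 to -2.01), other than wild type normoxia replicate 2, wild type hypoxia replicate 0 and labelled normoxia replicate 2. Cd83, a marker of activated B cells and dendritic cells, differed by -1.5 ± 0.311 (0.0152), with 14.2 to 16.5 CPM in labelled normoxia and 8.45 to 8.86 CPM in labelled hypoxia.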

How the results depend on the processing

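None of the 11 calls of listed B cell and plasma cell genes changed sign under the alternatives run. Of 49 calls named for other genes and followed through the alternatives, 13 held under every alternative and 36 missed the threshold under at least 1, 27 of them with the tissue score. Of these 1 reversed, Clca3 in labelled against wild type normoxia, at -0.56 with the tissue score, which Clca3 itself enters. The count of called genes among the 31 did move, and the counts here are given without the share of all genes called. In wild type hypoxia, where 7 were called, DESeq2 gave 17, limma 4 with either pseudocount and 1 with no FPKM minimum, only the 2 groups 0, the tissue score 0, and leaving out the 2 libraries of lowest total 11. In the libraries labelled β-arrestin 2 -/- under hypoxia (1 called), DESeq2 gave 2, only the groups 3, the tissue score 2 and the lowest totals left out 3. Against wild type in normoxia (2 called), those libraries gave 5 with DESeq2, 1 with limma and no minimum, 0 with the tissue score and 1 with the lowest totals left out. In hypoxia (0 called) DESeq2 gave 2. For their interaction (1 called) DESeq2 gave 13, no filter 2, limma with no minimum 0, only the groups 2, the tissue score 0 and the lowest totals left out 5. Leaving out 1 library gave 0 to 20 in wild type hypoxia, 0 to 1 in the labelled libraries under hypoxia, 0 to 2 for those libraries against wild type in either exposure, 0 to 17 for their interaction and 0 throughout for β-arrestin 1 -/-. The cause of these moves was not tested.

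Replicate numbers are shared between groups by label only, and the rule for pairing, every correlation of deviations over 0.1, was not met: 8, 3 and 3 of 15 pairs passed it for numbers 0, 1 and 2, with medians of 0.131, 0.00311 and 0.0055 and ranges of -0.463 to 0.464, -0.263 to 0.109 and -0.284 to 0.47. With the replicate block, 4 genes were called in wild type hypoxia and 1 for the labelled libraries against wild type in normoxia, and the other counts were within 1.5 times the ones reported.

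The totals of 16806806 to 25980876 fragments leave Pax5 (0 to 28 fragments per library), Fcrl5 (0 to 10) and Tnfrsf17 (0 to 15) at low counts, where a difference was not detectable at this depth.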

Other observations

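Of 17 tested genes for ligands and niche factors of B cells, 3 differed in their hypoxia response between the libraries labelled β-arrestin 2 -/- and wild type. All 3 were lower, where 2.56% of all genes were lower and 3.49% higher. The intracellular NF-κB subunit genes Relb and Nfkb2, through which lymphotoxin and BAFF act, had interaction values of -1.29 ± 0.267 (adjusted p = 0.0152) and -0.87 ± 0.139 (0.00487) in that test, and the chemokine gene Ccl20 had -6.88 ± 1.44 (0.0158). Ccl20 was at 5.4, 2.09 and 1.61 CPM in labelled normoxia and at 0.607, 0.314 and 0.261 CPM in labelled hypoxia. In wild type it was at 0.275, 0.335 and 0.0884 CPM in normoxia and at 0.521, 0.55 and 9.86 CPM in hypoxia. The size of its interaction thus rests in part on wild type hypoxia replicate 2 and on very low normoxic values. It ran from -7.39 to -3.12 over 22 alternatives, and the call was lost under 3. Tgfb1, whose product directs switching to IgA, rose with hypoxia on the log2 scale by 0.51 ± 0.0954 in wild type, 0.48 ± 0.0953 in β-arrestin 1 -/- and 0.47 ± 0.0953 in the labelled libraries (adjusted p = 0.0068, 0.0124 and 0.00362), and in β-arrestin 1 -/- it was the 1 niche gene called, not without normoxic replicate 0 (0.43) or 1 (0.49). Inpp5d, of the antigen receptor signalling list, which fell by 0.56 on the log2 scale in wild type hypoxia, rose by 0.59 ± 0.124 in the labelled libraries (adjusted p = 0.0045), with an interaction of 1.15 ± 0.175 (0.0044): it had 114, 107 and 110 CPM in wild type normoxia, 86.5, 74.1 and 63.5 in wild type hypoxia, 65.1, 66.7 and 72.3 in labelled normoxia and 89.7, 107 and 111 in labelled hypoxia.

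Arrb1 itself was lower in the libraries labelled β-arrestin 2 -/- than in wild type in normoxia (262 to 319 against 464 to 478 CPM, log2 difference -0.7 ± 0.118, adjusted p = 0.00435), and in hypoxia the difference was -0.02 ± 0.118 (0.986).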
